A study of Homo sapiens with 6 samples.

Results

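Interferon-stimulated genes and the RNA sensors that feed them were followed in U2OS cells, a human osteosarcoma line, after depletion of NUDT5, a NUDIX hydrolase that cleaves ADP-ribose. The members are a list of 47 gene symbols (36 antiviral effectors and their regulators, 5 STAT and IRF transcription factors, and 6 sensors), and all 47 were found among the 19977 symbols of the deposited expression table. The list was drawn up by function, with earlier results of these data known. One group of 3 libraries came from cells transfected with an siRNA directed at NUDT5 (siNUDT5), and the other 3 libraries from cells given a control siRNA without a target (siCtrl). RNA was taken 48 hours after transfection from cells that the labels give as otherwise untreated. Both groups therefore carry transfected siRNA, and untransfected cells were not analysed here. The sources used here do not give the number of siRNA sequences, and nothing in the labels says that libraries of a group came from separate cultures. The p-values thus rest on library-to-library spread alone, part or all of which may be technical.

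Double-stranded RNA in the cytosol is sensed by the helicases RIG-I (symbol DDX58 here) and MDA5 (IFIH1), which signal through MAVS and the kinase TBK1 to the transcription factor IRF3 and so to interferon genes. Secreted type I interferon binds the receptor IFNAR1 and IFNAR2, and the kinases JAK1 and TYK2 then activate STAT2. STAT2 and IRF9 are parts of the complex ISGF3, which binds interferon-stimulated response elements (ISREs) in promoters. Many antiviral genes can also be switched on by IRF3 or IRF1 directly, and several sensors are themselves interferon-stimulated.

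The ISRE core was found in most of the member promoters that could be searched, and it is shown here because genes that rose, fell and did not pass all hold it. Promoters were taken from RefSeq (build GRCh38.p14) as 250 bases before to 50 after the start site, and 37 of the 47 members had an entry. The core was searched on both strands as GAAA, NN and GAAA without a gap, where N is any base. It was found in 23 of these 37 promoters (62.2%), against 2.67% of 9924 promoters of tested genes and 3.65% of all 27305 promoters in the table. The GAS core TTCNNNGAA, which reads the same on both strands, was found in 9 of 37 (24.3%), against 6.52% of promoters of tested genes. In IFI27 the GAS match overlaps both ISRE matches. In the stretches below, read 5′ to 3′ along the gene's own strand, capitals mark ISRE core matches that lie whole within the stretch. TTTC-type capitals are matches on the other strand. A further match in IFIT5 starts 4 bases before the start site, so its first bases end that stretch in lower case. The first 6 genes rose in siNUDT5, IFIT5 and IFIH1 did not pass the test, and GBP1 fell.
IFI6, chr1:27672270-27672354, minus strand: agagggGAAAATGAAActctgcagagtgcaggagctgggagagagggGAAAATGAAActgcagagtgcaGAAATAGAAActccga
ISG15, chr1:1013362-1013421, plus strand: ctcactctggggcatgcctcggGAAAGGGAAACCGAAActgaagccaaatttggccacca
IFI27, chr14:94110609-94110668, plus strand: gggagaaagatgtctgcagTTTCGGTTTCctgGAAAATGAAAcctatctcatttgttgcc
IFIT3, chr10:89327833-89327892, plus strand: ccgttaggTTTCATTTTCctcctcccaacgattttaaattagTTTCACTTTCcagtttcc
BST2, chr19:17405723-17405782, minus strand: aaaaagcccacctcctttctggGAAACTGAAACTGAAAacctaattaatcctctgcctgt
IFITM3, chr11:320870-320929, minus strand: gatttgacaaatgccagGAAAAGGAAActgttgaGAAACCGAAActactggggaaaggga
IFIT5, chr10:89414508-89414567, plus strand: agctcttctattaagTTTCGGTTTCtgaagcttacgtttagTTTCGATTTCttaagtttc
IFIH1, chr2:162318806-162318865, minus strand: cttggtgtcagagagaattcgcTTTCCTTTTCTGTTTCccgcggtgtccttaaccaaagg
GBP1, chr1:89065301-89065360, minus strand: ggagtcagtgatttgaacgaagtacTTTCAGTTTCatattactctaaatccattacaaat
In ISG15, BST2 and IFIH1 the 2 matches overlap and run on as a single capital block.

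The libraries were first checked against their labels. NUDT5 stood at 3.04, 2.74 and 2.67 TPM in siNUDT5 1 to 3 and at 46.2, 49.0 and 52.0 TPM in siCtrl 1 to 3, so that 5.74% of the siCtrl mean was left. TPM, a level scaled for gene length and library total, is the unit throughout. The exact two-sided permutation test of NUDT5 gave p = 0.1, and no split of 3 against 3 can give less. Mesenchymal markers fitted an osteosarcoma line, with vimentin (VIM) at 3513 TPM or more in siNUDT5 and 3028 TPM or more in siCtrl, while COL1A2 and TWIST1 were under a mean of 1 TPM. Of 13 markers of other cell types 11 were under a mean of 1 TPM, among them the leukocyte marker PTPRC and the T cell marker CD3E. The summed level of those 11 was 0.715 to 1.04 TPM in siNUDT5 and 0.672 to 0.951 TPM in siCtrl. The other 2 moved with the groups: CD68 was 14.9 ± 0.408 TPM in siNUDT5 and 6.997 ± 1.47 TPM in siCtrl (SD, n = 3 each), and EPCAM stood at 5.10, 5.38 and 5.70 TPM in siNUDT5 and 7.18, 12.8 and 9.68 TPM in siCtrl. Their part in the results was not tested. TPM keeps no total depth, but steps in the low values gave siCtrl 2 the lowest relative depth, 64.1% of that of siCtrl 1, and the other 4 libraries 89.4% to 118%. Values of siCtrl 2 are therefore less precise, and results without it are given below.

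Of the 47 members 35 averaged 1 TPM or more across all libraries and were tested. Among these 35, 14 rose in siNUDT5, 2 fell (5.71%) and 19 did not pass. The 14 include IFI27, which was tested only because of its level in siNUDT5. In the same fit 10.9% of all 12236 tested genes rose and 5.2% fell. Rose and fell mean past an adjusted p of 0.05 by limma on log2(TPM + 1), two-sided, with Benjamini-Hochberg adjustment over all tested genes. Over all these genes 1334 rose and 636 fell, against 1034 and 904 with median-ratio scaling and 1018 and 965 with quantile normalization. The members' median log2 change was 0.30, siNUDT5 minus siCtrl, against 0.05 over all tested genes. Values of siNUDT5 and siCtrl did not overlap in 18 members that were higher and 6 that were lower, where 24.3% and 12.9% of all tested genes did the same. Without siCtrl 2, 17 members rose and 4 fell, with all 14 rises and both falls kept, but calls grew over the whole table too, with 21.8% of all tested genes higher (2665) and 9.29% lower (1137). Leaving out any other single library gave 10 to 14 rises and 1 to 3 falls among members, and 521 to 1331 rises and 212 to 743 falls over all tested genes. In bulk RNA, more cells that express a gene and more RNA per cell cannot be told apart.

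**Figure D1:**
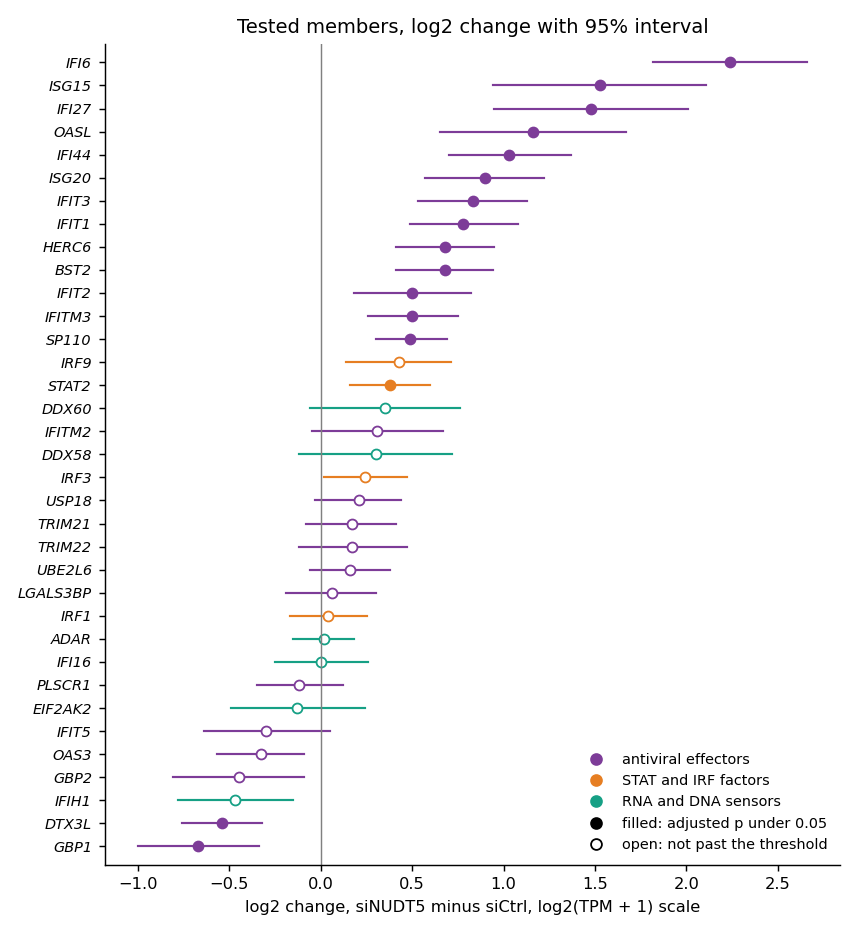
Log2 change (siNUDT5 minus siCtrl, log2(TPM + 1) scale) of the 35 tested members, with 95% intervals from the limma fit over 3 libraries per group. Filled points passed the threshold, and the 14 filled points right of zero stand against 2 left of it, DTX3L and GBP1, while no RNA or DNA sensor is filled.

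On the log2(TPM + 1) scale IFI6, ISG15 and IFI27 had the largest log2 changes among the tested members. OASL and IFI44, described below, came next, ahead of ISG20. This order depends on the pseudocount. With a pseudocount of 0.1 IFI27 stood above IFI6, and OASL (log2 change 1.71) stood above ISG15 (1.59). IFI6, a mitochondrial and endoplasmic reticulum membrane protein that restrains apoptosis and flavivirus replication, stood at 104, 117 and 151 TPM in siNUDT5 1 to 3 and at 32.9, 22.0 and 21.9 TPM in siCtrl 1 to 3. Its lowest siNUDT5 library was thus well above its highest siCtrl library, and its log2 change of 2.24 (standard error 0.183, adjusted p = 0.000427) is a 4.85-fold difference of mean TPM. ISG15, a ubiquitin-like modifier, stood at 31.0, 42.0 and 45.0 TPM in siNUDT5 and at 18.1, 8.12 and 14.2 TPM in siCtrl. The groups did not overlap, although siCtrl itself spread over more than a doubling between siCtrl 2 and siCtrl 1, and ISG15 had a log2 change of 1.53 (standard error 0.257, adjusted p = 0.00666). IFI27, a relative of IFI6, stood at 1.95, 2.73 and 3.82 TPM in siNUDT5, against 0.537 and 0.600 TPM in siCtrl 1 and siCtrl 3 and a listed 0 in siCtrl 2. It was tested only because of its level in siNUDT5, since its siCtrl mean was under 1 TPM. Its log2 change was 1.48 with adjusted p = 0.00512. ISG20, an exonuclease that acts on RNA, stood at 2.75, 3.85 and 3.22 TPM in siNUDT5 and at 1.37, 1.01 and 1.48 TPM in siCtrl, with a log2 change of 0.90 (adjusted p = 0.00531).

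Of the 4 IFIT genes tested, 3 rose and IFIT5 did not pass. The IFIT1 protein binds viral RNA ends that lack the host's cap methylation and blocks translation from them. IFIT1 stood at 6.73, 5.75 and 8.02 TPM in siNUDT5 and at 3.52, 3.59 and 3.45 TPM in siCtrl. IFIT3, its binding partner, stood at 6.32, 6.15 and 8.04 TPM in siNUDT5 and at 3.06, 3.33 and 3.81 TPM in siCtrl. Neither overlapped between the groups, and their log2 changes were 0.78 (adjusted p = 0.00585) and 0.83 (adjusted p = 0.00534). IFIT2 was lower in abundance, at 1.77, 2.57 and 1.70 TPM in siNUDT5 and 1.198, 1.14 and 1.03 TPM in siCtrl. Its log2 change of 0.50 passed narrowly (adjusted p = 0.0451) and was lost without any 1 library other than siCtrl 2, with adjusted p of 0.0648 when siCtrl 1 was left out and 0.144 when siCtrl 3 was, and of 0.0867, 0.158 and 0.082 when siNUDT5 1, 2 and 3 were left out in turn. IFIT5 was the most abundant of the family. It stood at 23.6, 20.6 and 22.4 TPM in siNUDT5 and at 23.9, 35.2 and 24.4 TPM in siCtrl. The siNUDT5 libraries lay just below siCtrl 1 and siCtrl 3, siCtrl 2 stood apart, and the log2 change was -0.30 (95% interval -0.64 to 0.05, adjusted p = 0.220). Without siCtrl 2 the log2 change of IFIT5 was -0.12, and the difference between IFIT5 and the other IFIT genes was not tested. All 3 of the family members with a promoter entry, IFIT1, IFIT3 and IFIT5, hold at least 2 ISRE core matches.

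**Figure D2:**
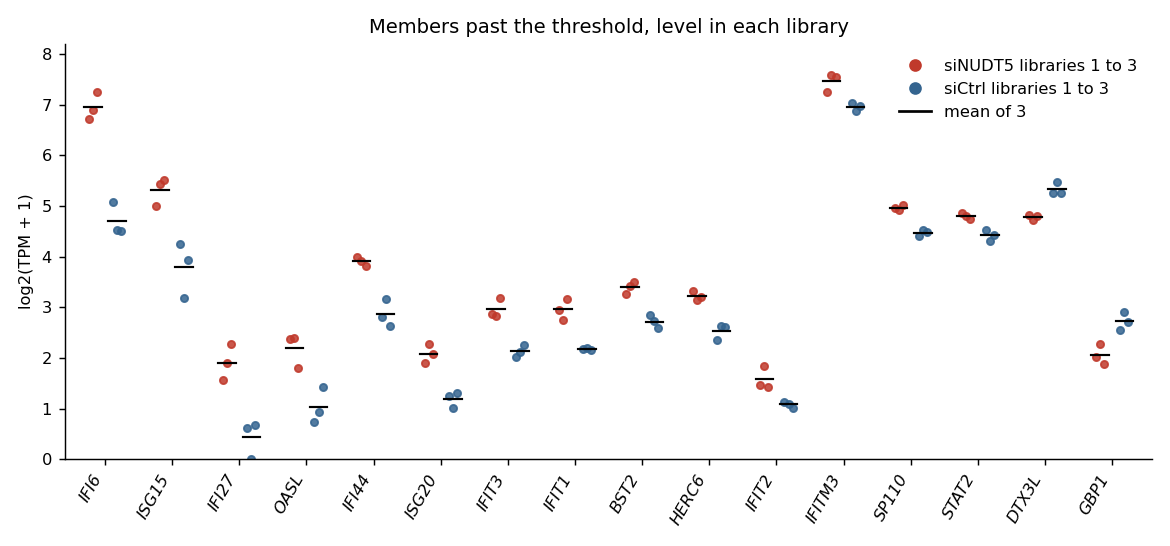
Level of the 16 members past the threshold in each library, as log2(TPM + 1), with siNUDT5 libraries left of siCtrl libraries for each gene and bars at the mean of 3. In each gene the 2 groups are separate, with siNUDT5 higher in 14 genes and lower in DTX3L and GBP1.

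OAS proteins sense double-stranded RNA and make a second messenger from ATP, and of the 2 family members tested OASL rose and OAS3 did not pass. OASL, a family member without that enzyme activity that helps RIG-I signalling, stood at 4.199, 4.295 and 2.499 TPM in siNUDT5 and at 0.658, 0.925 and 1.71 TPM in siCtrl. Its log2 change was 1.16 (adjusted p = 0.0111), with adjusted p = 0.0515 without siNUDT5 1. OAS1 and OAS2 lay under the test's filter and are described with the low members below. OAS3 stood at 4.28, 4.32 and 4.97 TPM in siNUDT5 and at 5.98, 5.77 and 6.10 TPM in siCtrl. Here siNUDT5 was the lower group in all libraries, and the log2 change of -0.33 did not pass (adjusted p = 0.0643), though it did without siCtrl 2 (adjusted p = 0.0355).

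Among effectors that act on membranes and virus release, BST2 and IFITM3 rose. BST2 (tetherin), which holds budding virus on the cell surface, stood at 8.63, 9.72 and 10.4 TPM in siNUDT5 and at 6.17, 5.62 and 5.05 TPM in siCtrl (log2 change 0.68, adjusted p = 0.00693). IFITM3, which blocks virus entry by fusion, was the most abundant riser, at 151, 192 and 187 TPM in siNUDT5 and 131, 117 and 124 TPM in siCtrl. The change was 1.43-fold in mean TPM (log2 change 0.50, adjusted p = 0.0162), and adjusted p was 0.0632 without siCtrl 3, 0.0758 without siNUDT5 2 and 0.0846 without siNUDT5 3. IFITM2 stood at 47.5, 55.9 and 48.9 TPM in siNUDT5 and at 47.7, 31.3 and 45.2 TPM in siCtrl, which overlap (log2 change 0.31, adjusted p = 0.221). IFITM1, IFITM2 and IFITM3 are close paralogs, and exons of IFITM1 and IFITM2 overlap on the same strand in GENCODE 29. The sources used here do not say how shared reads were counted, so the split between these genes is uncertain.

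Other effectors that rose were IFI44, HERC6 and SP110. IFI44, a cytoplasmic protein of the antiviral state, stood at 15.02, 14.04 and 13.02 TPM in siNUDT5 and at 5.99, 8.02 and 5.24 TPM in siCtrl, a 2.19-fold difference of means (log2 change 1.03, adjusted p = 0.00335). HERC6, from the family of the human ISG15 ligase HERC5, stood at 8.97, 7.87 and 8.18 TPM in siNUDT5 and at 4.14, 5.24 and 5.13 TPM in siCtrl (log2 change 0.68, adjusted p = 0.00733). Its promoter window held no ISRE core match. SP110, a nuclear body protein, stood at 30.4, 29.2 and 31.3 TPM in siNUDT5 and at 20.3, 22.1 and 21.3 TPM in siCtrl. These values are tight within each group (log2 change 0.49, adjusted p = 0.00781), and adjusted p was 0.0531 without siNUDT5 3. An antisense gene covers 18.4% of the exon bases of SP110 in GENCODE 29, and the sources used here do not say whether counting used strand. The same holds for IFITM3, IRF1 and IRF3, where a gene on the opposite strand covers 21.3%, 22.0% and 19.3%. In IFIT2 a gene on the same strand covers 8.68%.

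GBP1 and DTX3L fell. GBP1, a guanylate-binding GTPase that coats intracellular pathogens and responds strongly to interferon gamma, stood at 3.05, 3.83 and 2.68 TPM in siNUDT5 and at 4.86, 6.51 and 5.59 TPM in siCtrl. Its log2 change was -0.67 (standard error 0.144, adjusted p = 0.0175), with adjusted p of 0.0651 without siCtrl 3, 0.0703 without siNUDT5 1 and 0.0816 without siNUDT5 3. GBP2 lay in the same direction, at 4.05, 3.72 and 4.56 TPM in siNUDT5 and 5.43, 7.72 and 4.98 TPM in siCtrl, without passing (log2 change -0.45, adjusted p = 0.0913). DTX3L, a ubiquitin ligase that works with the ADP-ribosyltransferase-like protein PARP9, stood at 27.5, 25.6 and 27.0 TPM in siNUDT5 and at 37.2, 43.3 and 37.3 TPM in siCtrl. The groups were well apart (log2 change -0.54, adjusted p = 0.00819). PARP9 is its neighbour on the opposite strand and shares 3.70% of the exon bases of DTX3L. It stood at 9.74, 9.50 and 9.15 TPM in siNUDT5 and at 8.21, 11.6 and 10.0 TPM in siCtrl, where the groups overlap (log2 change -0.05, adjusted p = 0.816).

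The effectors not yet named that were tested and did not pass were USP18, TRIM21, TRIM22, UBE2L6, PLSCR1 and LGALS3BP. USP18, the protease that removes ISG15 and damps receptor signalling, stood at 3.10, 3.46 and 3.25 TPM in siNUDT5 and at 2.62, 2.73 and 2.74 TPM in siCtrl. Those groups did not overlap, yet the difference was small (log2 change 0.21, 95% interval -0.03 to 0.44, adjusted p = 0.215). UBE2L6, the conjugating enzyme for ISG15, had a log2 change of 0.16 (adjusted p = 0.308). ISG15 therefore passed the threshold, and its tested conjugating and removing enzymes did not; the difference between these genes' changes was not tested. The antibody receptor TRIM21 and the restriction factor TRIM22 each had a log2 change of 0.17, the scramblase PLSCR1 one of -0.12 and the secreted glycoprotein LGALS3BP one of 0.06. LGALS3BP was the most abundant member in siCtrl, at 168 ± 11.1 TPM in siNUDT5 and 162 ± 21.1 TPM in siCtrl (SD, n = 3 each).

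Of the transcription factors, STAT2 passed. STAT2 stood at 27.9, 27.0 and 25.8 TPM in siNUDT5 and at 22.1, 18.8 and 20.5 TPM in siCtrl (log2 change 0.38, adjusted p = 0.0312). Its groups did not overlap, and the call was lost when siCtrl 3 was left out (adjusted p = 0.116) and when siNUDT5 1, 2 or 3 was (0.127, 0.121 and 0.0937). IRF9, its partner in ISGF3, stood at 12.7, 16.9 and 14.1 TPM in siNUDT5 and at 11.5, 10.2 and 9.95 TPM in siCtrl. IRF9 lay just outside the threshold (log2 change 0.43, adjusted p = 0.0510) and passed without siCtrl 1 (adjusted p = 0.0422) or siCtrl 2 (adjusted p = 0.0233). A gene on the same strand covers 48.4% of its exon bases in GENCODE 29, so its count may be shared. IRF3, the factor that sensors activate by phosphorylation, stood at 38.9, 43.9 and 38.2 TPM in siNUDT5 and at 36.7, 31.5 and 33.5 TPM in siCtrl (log2 change 0.24, adjusted p = 0.134). IRF1, a factor induced by interferon gamma, held a narrow range, at 9.22, 8.72 and 8.89 TPM in siNUDT5 and 8.90, 8.34 and 8.77 TPM in siCtrl, with a log2 change of 0.04 (95% interval -0.17 to 0.25). IRF7, the factor that amplifies interferon production, was listed at 0 in all 6 libraries. A listed 0 can be a failed estimate and is not proof of absence.

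None of the 6 sensors passed in limma, and 1 of them, IFIH1, had an unadjusted p under 0.05. RIG-I (DDX58) stood at 17.3, 14.1 and 16.3 TPM in siNUDT5 and at 9.55, 16.9 and 12.7 TPM in siCtrl. Its siCtrl libraries spread as widely as the groups differ, and the log2 change was 0.30 (95% interval -0.12 to 0.72, adjusted p = 0.311). MDA5 (IFIH1) had the opposite direction, at 2.59, 2.704 and 3.36 TPM in siNUDT5 and 3.61, 4.82 and 4.73 TPM in siCtrl, with no overlap (log2 change -0.47, adjusted p = 0.0521). The helicase DDX60, which aids these sensors, stood at 4.19, 3.39 and 3.96 TPM in siNUDT5 and at 1.91, 3.72 and 3.01 TPM in siCtrl (log2 change 0.35, adjusted p = 0.229). Leaving out siCtrl 2 brought DDX58 (adjusted p = 0.0102) and DDX60 (0.0257) past the threshold as higher and IFIH1 (0.0451) as lower, and leaving out siCtrl 1 did so for IFIH1 (0.0262). The direction of DDX58 and of IFIH1 was the same in all 14 and 13 alternative fits that gave a value.

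The remaining sensors were abundant and did not pass. PKR (EIF2AK2), the kinase that stops translation on double-stranded RNA, stood at 38.4, 31.5 and 34.3 TPM in siNUDT5 and at 31.8, 48.8 and 35.0 TPM in siCtrl (log2 change -0.13, 95% interval -0.49 to 0.24). The siCtrl libraries of EIF2AK2 spread beyond those of siNUDT5 at the upper end, and its log2 change lay between -0.25 and 0.05 over the alternatives. ADAR, which edits double-stranded RNA and so hides it from MDA5 and PKR, stood at 158, 156 and 148 TPM in siNUDT5 and at 155, 148 and 154 TPM in siCtrl. These ranges overlap almost fully, and the 95% interval of its log2 change, -0.15 to 0.18, was the narrowest among the sensors. IFI16, a nuclear DNA sensor, stood at 51.0, 45.4 and 48.0 TPM in siNUDT5 and at 42.8, 55.6 and 46.5 TPM in siCtrl (95% interval -0.25 to 0.26).

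Of the members, 12 had a mean under 1 TPM over the 6 libraries, and the interferon-induced GTPases MX1 and MX2 were among them. In siNUDT5 alone the mean was 1.52 TPM for OAS1 and 1.05 TPM for IFI44L. In 6 of these 12 every siNUDT5 library was above every siCtrl library, where 7.65% of the 4667 genes under a mean of 1 TPM with any value above 0 did so, and in none was every siNUDT5 library below. OAS1 stood at 1.23, 1.77 and 1.57 TPM in siNUDT5 and at 0.434, 0.308 and 0.563 TPM in siCtrl. OAS2 stood at 0.495, 0.296 and 0.53 TPM in siNUDT5, against a listed 0 in siCtrl 1 and siCtrl 2 and 0.0208 TPM in siCtrl 3. OAS1 was above 0 in all 6 libraries, and the groups did not overlap in either gene. RSAD2 (viperin), which makes a chain-terminating nucleotide, stood at 0.374, 0.504 and 0.600 TPM in siNUDT5 and at 0.0372, 0.174 and 0.0332 TPM in siCtrl. IFITM1 stood at 0.560, 0.565 and 0.633 TPM in siNUDT5, against a listed 0 in siCtrl 1 and siCtrl 2 and 0.149 TPM in siCtrl 3. The groups are apart in each of these, at levels where a few reads decide a value. IFI44L, the neighbour and relative of IFI44, stood at 1.02, 0.993 and 1.13 TPM in siNUDT5 and at 0.469, 0.695 and 0.482 TPM in siCtrl. MX2, which blocks nuclear entry of retroviruses, stood at 0.371, 0.406 and 0.245 TPM in siNUDT5 and at 0.147, 0.173 and 0.0329 TPM in siCtrl. Refitted by limma without the filter, OAS1, OAS2, RSAD2, IFITM1 and IFI44L passed as higher, with adjusted p of 0.00693, 0.00843, 0.0164, 0.00503 and 0.0261 in this order, where 1.74% of those 4667 genes did. MX2 did not pass (adjusted p = 0.0720). In that fit 18 members rose and 2 fell, against 6.66% and 3.15% of 16903 genes.

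The other 6 low members did not separate the groups. MX1, which blocks influenza virus replication, stood at 0.756, 0.633 and 0.405 TPM in siNUDT5 and at 0.533, 0.4996 and 0.858 TPM in siCtrl. CMPK2, the mitochondrial nucleotide kinase whose gene lies beside RSAD2, stood at 0.595 to 0.805 TPM in siNUDT5 and at 0.645 to 0.831 TPM in siCtrl. The pair thus differed in pattern, although their exons overlap by under 1% of bases. IFI35 was at 0.227 to 0.750 TPM in siNUDT5 and at 0 to 0.268 TPM in siCtrl. The ISG15 ligase gene HERC5 reached 0.157 TPM in siNUDT5 and 0.129 TPM in siCtrl, and the apoptosis factor XAF1 reached 0.0357 and 0.0672 TPM in siNUDT5 and siCtrl. With IRF7 at a listed 0, these genes stayed under a mean of 1 TPM in both groups.

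**Figure D3:**
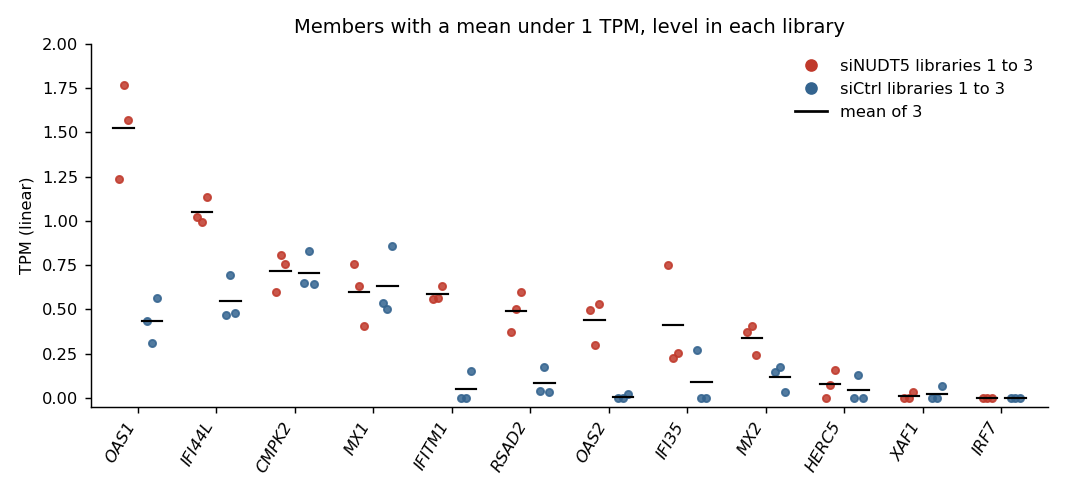
TPM (linear axis) in each library of the 12 members with a mean under 1 TPM, siNUDT5 libraries left of siCtrl libraries for each gene, bars at the mean of 3. The groups are separate in OAS1, IFI44L, IFITM1, RSAD2, OAS2 and MX2, and overlap in the other 6.

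Risers were found at both low and high levels. Of 15 tested members with a mean under 10 TPM over all libraries 8 rose (53.3%), and of 20 with a higher mean 6 rose (30.0%). The 8 include IFI27, which was tested only because of its level in siNUDT5. In all tested genes the share that rose was 10.9% on either side of 10 TPM. The difference between the shares of members was not tested. The 47 members together summed to 1119, 1197 and 1194 TPM in siNUDT5 1 to 3 and to 953, 914 and 937 TPM in siCtrl 1 to 3. The median deviation of the tested members from the siCtrl mean was 0.25, 0.30 and 0.26 on the log2 scale in siNUDT5 1 to 3, and at most 0.007 in siCtrl 1 to 3. The siCtrl values are near 0 because the siCtrl mean is their own, so they say nothing of spread within siCtrl. Over the 35 tested members siCtrl 2 was the highest siCtrl library in 15 and the lowest in 13. Of the 14 risers, siCtrl 1 was the highest siCtrl library in 6 and siCtrl 2 and siCtrl 3 in 4 each.

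**Figure D4:**
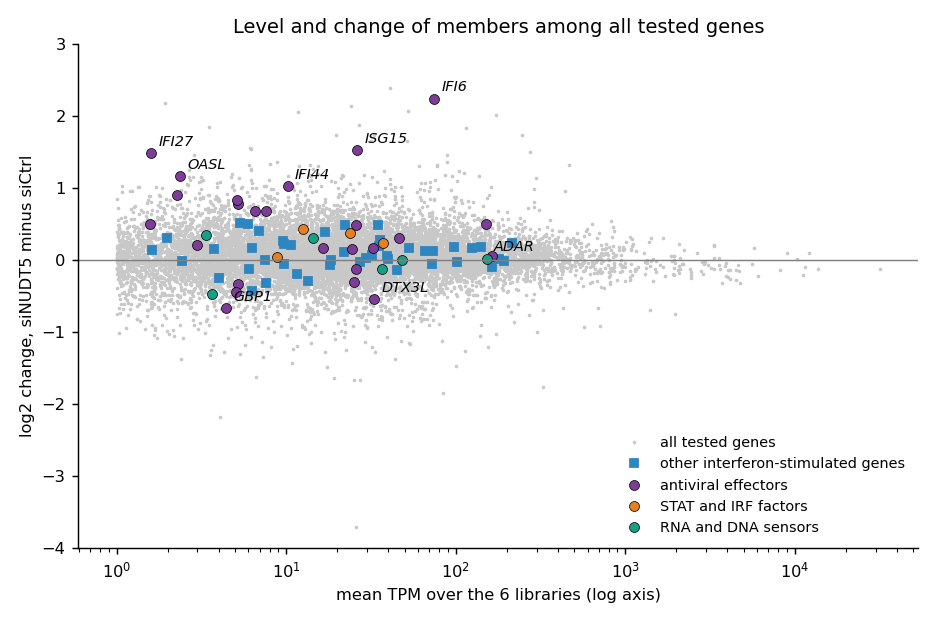
Mean TPM over the 6 libraries (log axis) against log2 change, siNUDT5 minus siCtrl, for all 12236 tested genes (grey), other interferon-stimulated genes (blue squares) and the tested members by role (circles). IFI6 at 2.24 and ISG15 at 1.53 are the highest members, and ADAR at 0.02 lies on the zero line.

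ISRE cores were found in every class of members. Of the members with a promoter entry, the core was found in 9 of 12 that rose, in 2 of 2 that fell, in 8 of 14 that did not pass and in 4 of 9 that were not tested. IFI6 held 3 matches, as did IFIT5, IFIH1 and the near-silent HERC5, and the risers HERC6, STAT2 and SP110 held none. Over the whole table the core was found in 2.87% of 1079 promoters of genes that rose, 3.31% of 484 that fell and 2.61% of 8379 that did not pass, where a promoter reached through symbols of different classes is counted in each. A match is a description of letters in this window and not a shown binding site. The 7-base words AAGACTT or AGACTTA, and GATTAAC, mark the 3′ UTRs of many falling and rising genes in these data, and an earlier analysis chose them from these log2 changes. Among the 35 tested members AAGACTT or AGACTTA was found in 3 (8.57%), GBP2, OAS3 and IFIT2, against 24.1% of 11943 genes searched. GATTAAC was found in 1, IFIT3 (2.86%), against 6.40% of genes. These shares were not matched for 3′ UTR length, which ran from 62 bases in ISG15 to 8063 in EIF2AK2, and a short UTR has less room for a word. Neither GBP1 nor DTX3L held any of the 3 words.

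Interferon genes themselves were at or near 0. Of 21 type I, II and III interferon genes 20 were listed at 0 in all 6 libraries, IFNB1 among them. The exception was IFNE, with 0.124 TPM in siNUDT5 1 and 0.172 TPM in siCtrl 2.

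Of 18 receptor and JAK-STAT genes other than STAT2, 5 rose (27.8%) and 2 fell (11.1%), beside 10.9% and 5.2% of all tested genes. IFNAR1 stood at 40.4, 33.1 and 37.7 TPM in siNUDT5 and at 18.1, 30.5 and 22.0 TPM in siCtrl (log2 change 0.66, adjusted p = 0.0367). The groups did not overlap, but the call was lost when any 1 library other than siCtrl 2 was left out, where leaving out siCtrl 1 gave an adjusted p of 0.0557, siCtrl 3 gave 0.12, and siNUDT5 1, 2 and 3 gave 0.131, 0.0738 and 0.128 in turn. IFNGR2, a chain of the interferon gamma receptor, stood at 62.7, 61.2 and 57.3 TPM in siNUDT5 and at 42.2, 42.9 and 41.3 TPM in siCtrl (log2 change 0.51, adjusted p = 0.00529). IFNAR2 was at 6.77, 7.23 and 6.33 TPM in siNUDT5 and 5.72, 4.7997 and 4.24 TPM in siCtrl and did not pass (adjusted p = 0.0615). The inhibitors SOCS3 (log2 change 0.78, adjusted p = 0.00500) and SOCS1 (0.43, adjusted p = 0.0280) rose, as did the phosphatase gene PTPN1 (0.74, adjusted p = 0.00116). PTPN2, a phosphatase of JAK1, fell by 0.44 (adjusted p = 0.0367). When siCtrl 3 or any 1 siNUDT5 library was left out, SOCS1 (adjusted p 0.0809 to 0.116) and PTPN2 (0.0589 to 0.151) did not pass. STAT3 fell most, to 46.5, 46.5 and 46.0 TPM in siNUDT5, against 84.5, 80.3 and 82.2 TPM in siCtrl (log2 change -0.82, adjusted p = 0.000699). The kinases JAK1 (95% interval -0.17 to 0.34) and TYK2 (-0.35 to 0.24) did not pass.

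Of 27 tested genes of the relay from sensor to interferon, 2 rose and 2 fell (7.41% each), near the shares of all tested genes. MAVS, the mitochondrial adaptor of RIG-I and MDA5, stood at 22.8, 22.7 and 20.3 TPM in siNUDT5 and at 16.4, 13.5 and 15.7 TPM in siCtrl (log2 change 0.50, adjusted p = 0.0170) and was among the rises. Its adjusted p was 0.0603 without siCtrl 3 and 0.0792, 0.0833 and 0.051 without siNUDT5 1, 2 and 3. IRF8, an IRF factor best known in myeloid cells, fell by 0.55 (adjusted p = 0.0144), and RNASEH2B, a subunit of the enzyme that clears RNA from DNA hybrids, by 0.55 (adjusted p = 0.0277). Neither passed without siCtrl 3 (adjusted p of 0.0584 for IRF8 and 0.0738 for RNASEH2B), siNUDT5 1 (0.0597 and 0.0782) or siNUDT5 2 (0.0745 and 0.086), nor did RNASEH2B without siNUDT5 3 (0.12). TBK1 (95% interval -0.38 to 0.35), the DNA sensor cGAS (symbol MB21D1 here, -0.37 to 0.21) and STING (TMEM173, -0.36 to 0.27) did not pass. Joined with the receptor and JAK-STAT genes, 7 of 45 tested rose (15.6%) and 4 fell (8.89%). Without siCtrl 2 these counts were 12 and 5, beside 21.8% and 9.29% of all tested genes in that fit. Without siCtrl 3 or any 1 siNUDT5 library 3 rose and 1 or 2 fell, and PTPN1, SOCS3 and STAT3 passed in all 14 alternatives.

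**Figure D5:**
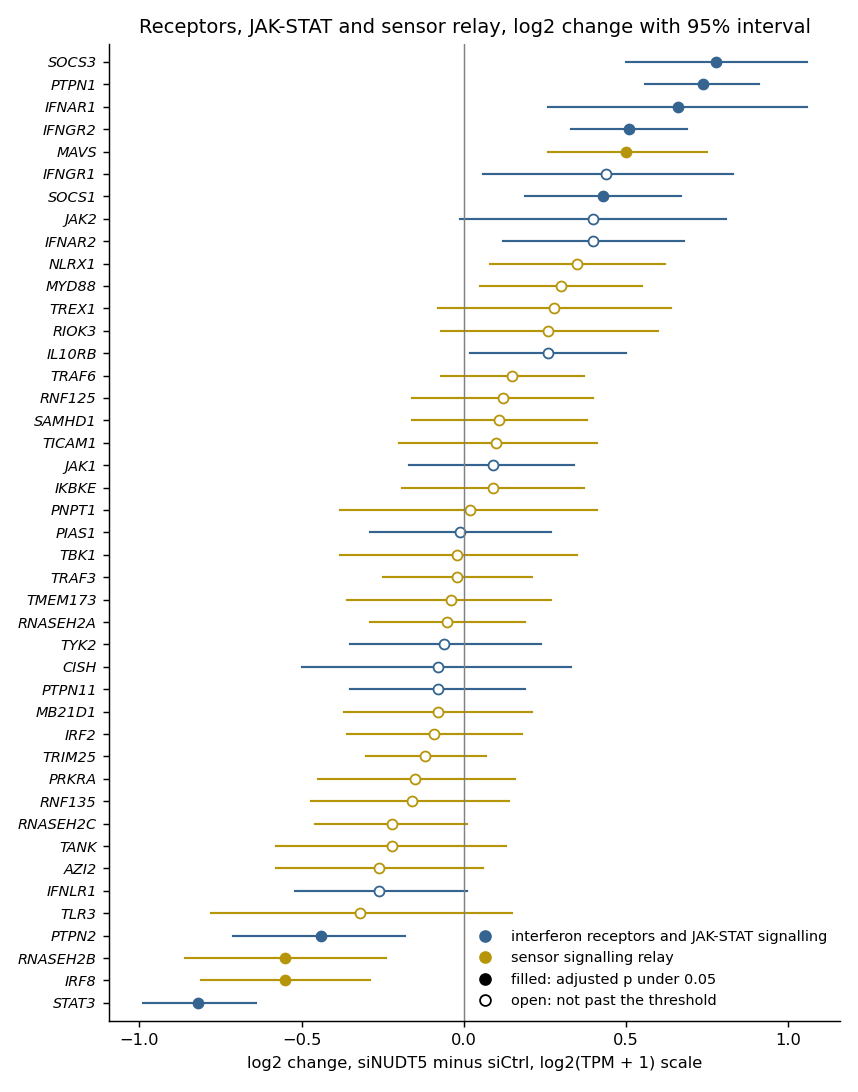
Log2 change (siNUDT5 minus siCtrl, log2(TPM + 1) scale) with 95% limma intervals of 43 of the 45 tested genes of interferon receptors, JAK-STAT signalling and the sensor relay, none of them members. Filled points passed the threshold, with SOCS3, PTPN1 and IFNAR1 at the top and STAT3 at the bottom.

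Of 45 tested interferon-stimulated genes outside the member list, 5 rose (11.1%) and 1 fell (2.22%), beside 10.9% and 5.2% of all tested genes, and their median log2 change was 0.11. The risers were the peptide transporter gene TAP1 (log2 change 0.48, adjusted p = 0.0191) and the immunoproteasome gene PSMB9 (0.49, adjusted p = 0.0299), which also serve antigen presentation, with RNF213 (0.39, adjusted p = 0.0213), HELZ2 (0.51, adjusted p = 0.0415) and APOL1 (0.50, adjusted p = 0.0470). APOL6 fell by 0.43 (adjusted p = 0.0393). Without siCtrl 2, 11 of the 45 rose, where 21.8% of all tested genes did. Leaving out siCtrl 1 left 2 rises, leaving out siCtrl 3 or siNUDT5 3 left 1, and without siNUDT5 1 or siNUDT5 2 none did in limma, where 7 and 6 were higher at an unadjusted p under 0.05. The ISRE core was found in 22 of 40 promoters of this list (55.0%).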

How the data were processed

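The authors deposited TPM per gene symbol for 6 libraries. Per the labels' protocols, libraries came from a strand-specific mRNA kit. The build hg19, DESeq2 1.22.1 and STAR 2.7.3a are listed without roles, per the submitters' processing notes. The sources used here do not give the quantifier, annotation or use of strand. Groups came from sample titles. TPM are not counts, so limma 3.58.1 (R 4.3.3; lmFit, eBayes with a trend) was run on log2(TPM + 1) over the 12236 genes that averaged 1 TPM or more. Changes are on that scale and understate those of low genes. Calculations used Python 3.11.15, pandas 2.3.3, numpy 2.4.6 and scipy 1.17.1, and matplotlib 3.10.9 drew figures. The fit was tested on simulated data with 100 changed genes at each of 2 sizes. It recovered 44% of log2 changes of 0.5 and 100% of those of 1, with 13 false calls. A gene that did not pass may thus still have changed by such a small amount. Simulated noise was independent between libraries, and fewer genes changed there than the 1334 that rose in the real fit. Recovery and false calls in the real data may therefore differ. Relative depth came from ratios of values under 0.3 TPM. Promoters, 3′ UTRs (GENCODE 29) and exon overlaps were matched by symbol. The members and lists were chosen with earlier results of these data known. All members could be named, with values per library for those past the threshold, the factors and the sensors. Values for other members were added afterwards. Of other lists, called genes and 10 fixed genes were named. As alternatives, each library was left out, the pseudocount was set to 0.1 or 5, the filter dropped or raised to 5 TPM, values rescaled by median ratios or quantiles, a replicate block added, and the trend dropped. A few genes of the lists are counted but not reported here by name.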

Additional observations from a re-analysis of the deposited data

How the results depend on the processing

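Of the 16 members past the threshold none changed sign in any of the 14 alternatives, and 9 passed in every alternative that tested them: IFI6, ISG15, IFI27, IFI44, ISG20, IFIT1, IFIT3, HERC6 and BST2. Of these, IFI27 passed the main filter only through its level in siNUDT5. Rises among members ranged from 10 to 17 over leaving out single libraries. At a mean of at least 5 TPM there was 1 fall among members, as GBP1 was under that filter and not tested. With the replicate block there was also 1, as DTX3L was tested and did not pass (adjusted p = 0.0589, limma). Falls among members were 4 with median-ratio scaling, quantile normalization or no trend (IFIH1 and OAS3 added), and 1 to 4 without single libraries. STAT2 and IFIT2 did not pass under either scaling. Other interferon-stimulated genes had 2 rises without a filter, 3 with median-ratio scaling or quantile normalization, 0 with the replicate block (6 at an unadjusted p under 0.05, limma) and 0 to 11 without single libraries. Their falls were 0 without a filter or with the replicate block (1 each at an unadjusted p under 0.05, limma) and 0 to 1 without single libraries. Receptor, JAK-STAT and relay genes had 2 rises and 1 fall with the replicate block, and 3 to 12 rises and 1 to 5 falls without single libraries. Over all genes the replicate block left 486 rises and 253 falls, quantile normalization gave 965 falls, and leaving out single libraries gave 521 to 2665 rises and 212 to 1137 falls, the highest of each without siCtrl 2. Median-ratio scaling gave 1034 rises and 904 falls. The cause of these differences was not tested. Same-numbered libraries deviated from their group means with correlations of -0.43, -0.54 and -0.04 (numbers 1 to 3), and no library correlated best with its own number. Deviations from a mean of only 3 libraries depend on each other, so they cannot show whether the numbers pair the samples. The replicate block kept 10 of 14 member rises and 1 of 2 falls.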
